A study of Mus musculus with 6 samples.

Results

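Rrm1, Rrm2, Rrm2b, Tyms, Tk1, Dut, Dck, Dtymk and Samhd1, genes that supply or limit the deoxynucleotides (dNTPs) from which DNA is made, were compared between NF-YAcKO and NF-YAfl/fl satellite cells (SCs). They were taken by name from the gene tables of the 6 libraries, with earlier results of these data known. These 9 genes were among the 35976 genes of the tables, and all 9 were among the 17348 genes that passed the filter on low counts and were tested.

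A cell that copies its DNA needs a steady supply of all dNTPs, and most of these genes are known to be active in or just before S phase. Ribonucleotide reductase turns ribonucleotides into deoxyribonucleotides. Rrm1 encodes its large subunit, Rrm2 the small subunit of dividing cells, and Rrm2b a small subunit that p53 can induce and that also serves cells that do not divide. Thymidylate is made by Tyms from dUMP, which Dut provides by cleaving dUTP, or is salvaged from thymidine by Tk1, and Dtymk phosphorylates it further. Dck salvages deoxycytidine and other deoxynucleosides. Samhd1 works in the opposite direction, since it hydrolyses dNTPs, and it is known for its high level in myeloid cells.

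The 3 NF-YAcKO and 3 NF-YAfl/fl libraries came from SCs, the stem cells of skeletal muscle, of tamoxifen-treated mice whose age is given as 5 to 7 weeks in the labels. NF-YAcKO mice were NF-YAfl/fl;Pax7-CreERT2, in which tamoxifen activates a Cre that is driven by Pax7 and so acts in Pax7-expressing cells, while NF-YAfl/fl controls carried the floxed alleles without Cre. NF-YA is the subunit of the trimeric factor NF-Y that contacts the CCAAT box, so the comparison asks how transcript levels differ where the NF-YA gene was targeted. The cells had been enriched by depleting others with magnetic beads against CD31, CD45, CD11b and Sca1 and were cultured in growth medium, and total RNA was sequenced.

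The total expected counts lay between 26936230 and 41118984 per library. An entry for the deleted allele received 22.3% to 34.2% of the Nfya counts in NF-YAcKO and 0 of 613 to 1087 counts in NF-YAfl/fl, which allows a share of up to 0.276% to 0.489%. These are shares of counts, not corrected for transcript length, so they do not give the share of transcripts or of cells. The level of the whole gene was 27.5 ± 0.874 CPM in NF-YAcKO against 28.7 ± 7.20 CPM in NF-YAfl/fl (SD, n = 3). The genotypes also stood apart in cell markers. All 6 tested markers of differentiating muscle were called lower in NF-YAcKO, with sums of 43.4 to 121 CPM against 7989 to 10452 CPM, and all 13 macrophage markers were called higher, with sums of 148 to 295 CPM against 6.17 to 13.2 CPM. Myoblast markers, among them Pax7 and Myod1, were present in all libraries, with sums of 1450 to 1630 CPM and 2223 to 3878 CPM. These 7 markers did not all differ in the same direction, with 2 higher and 3 lower in NF-YAcKO at an FDR under 0.05. In bulk RNA, fewer cells of a type and less RNA per cell cannot be told apart. Xist, transcribed from the inactive X chromosome, was at 843 ± 8.35 CPM in NF-YAcKO and 0.389 ± 0.0846 CPM in NF-YAfl/fl, and Y-linked Ddx3y at 0.0636 ± 0.0277 CPM and 84.9 ± 3.82 CPM, although the study describes male mice. Genotype and sex, as read from Xist and Ddx3y, therefore cannot be told apart for any gene compared here. None of the 9 genes is on the X or Y chromosome, which does not remove this limit for them.

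Upstream stretches of 5 of these genes are shown because NF-Y binds the CCAAT box and because the genes differ in it. RefSeq promoter windows (GRCm38.p6) were matched by symbol for 8 of the 9 genes, all but Rrm2b. Each window holds 250 bases before and 50 after the annotated start, and the printed stretch runs on the gene's strand from base -150 to base -21. Capitals mark CCAAT, or ATTGG for the other strand, and the E2F core letters TCCCGC or TGGCGC, or GCGGGA and GCGCCA for the other strand. No motif searched overlaps another in these stretches. The stretches of Rrm1 (chr7:102441545-102441674, plus strand), Rrm2 (chr12:24708104-24708233, plus strand), Dtymk (chr1:93801955-93802084, minus strand), Dck (chr5:88764863-88764992, plus strand) and Tyms (chr5:30073646-30073775, minus strand) read 5′ to 3′:
Rrm1: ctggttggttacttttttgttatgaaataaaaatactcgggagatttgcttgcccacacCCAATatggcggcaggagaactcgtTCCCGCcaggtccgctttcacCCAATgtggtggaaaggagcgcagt
Rrm2: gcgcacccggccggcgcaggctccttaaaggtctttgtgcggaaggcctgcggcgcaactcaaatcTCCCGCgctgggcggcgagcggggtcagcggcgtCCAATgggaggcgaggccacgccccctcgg
Dtymk: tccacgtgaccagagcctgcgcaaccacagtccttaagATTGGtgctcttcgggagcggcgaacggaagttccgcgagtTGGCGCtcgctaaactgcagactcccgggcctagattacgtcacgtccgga
Dck: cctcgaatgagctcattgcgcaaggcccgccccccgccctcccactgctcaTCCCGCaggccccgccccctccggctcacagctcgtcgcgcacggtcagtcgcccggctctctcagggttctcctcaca
Tyms: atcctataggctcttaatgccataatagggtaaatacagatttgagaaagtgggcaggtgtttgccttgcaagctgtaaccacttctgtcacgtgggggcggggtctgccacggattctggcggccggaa

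Rrm1 holds CCAAT at -91 and -45 with the E2F core letters between them at -66, and Rrm2 holds CCAAT at -50 with the E2F core letters at -84. In Dtymk the inverted form ATTGG is at -112 and TGGCGC at -71. Dck holds only TCCCGC, at -99, and the Tyms stretch holds none of these letters, while its window has GCGCCA after the start, at 23. The windows of Tk1 (TGGCGC at -72) and Dut (at -248, -92 and -25) hold E2F core letters without CCAAT, and that of Samhd1 holds none. CCAAT or its inverse is thus in 3 of 8 windows (37.5%), against 38.3% of the windows of 12466 tested genes, and E2F core letters are in 7 of 8 (87.5%) against 43.8%. In the windows of 21 genes of DNA replication, the shares were 57.1% for CCAAT and 76.2% for E2F core letters. The motifs were chosen with the promoters in view. These are matches of letters in a fixed window, and binding of a factor to them was not measured here.

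In NF-YAcKO, the mRNAs of Rrm2 and Dut were higher and those of the other 7 genes did not pass the call, which asks for a log2 fold change beyond 1 in either direction and an FDR under 0.01 in edgeR's quasi-likelihood test, adjusted by Benjamini-Hochberg over all tested genes. Over all tested genes, 12.3% were called in either direction and 4.65% were called higher. The median log2 fold change of the 9 genes was 0.90, against -0.02 over all tested genes, and all 9 values were above 0. At an FDR under 0.05 with no fold minimum, 7 of 9 were higher and 0 lower (19.7% and 18.9% of all tested genes were), the exceptions being Tyms and Samhd1. The same 7 genes had every NF-YAcKO library above every NF-YAfl/fl library in CPM, which 29.1% of all tested genes had in this direction. With edgeR, 0 of 9 were called lower, 0 were lower at an unadjusted p under 0.05, and DESeq2 also called 0 lower. The sum over the 9 genes was 1151 to 1218 CPM in NF-YAcKO and 491 to 694 CPM in NF-YAfl/fl.

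**Figure D1:**
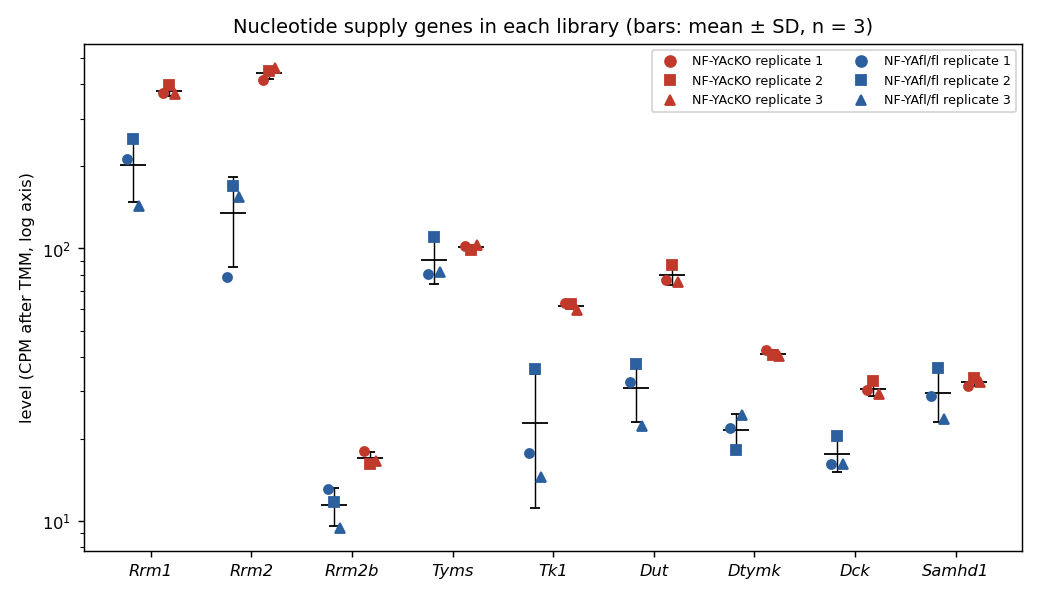
Level of each of the 9 genes in CPM after TMM normalization (log axis) in 3 NF-YAcKO and 3 NF-YAfl/fl libraries, with bars for mean ± SD. Red NF-YAcKO points lie close together and above all blue NF-YAfl/fl points for 7 genes, while the genotypes overlap for Tyms and Samhd1.

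The NF-YAcKO libraries were close to each other, with coefficients of variation from 1.87% (Tyms) to 7.83% (Dut), while those of NF-YAfl/fl ran from 14.4% (Dck) to 51.2% (Tk1). Among the controls, replicate 2 was the highest library for 7 of 9 genes and replicate 3 the lowest for 6 of 9. The replication genes, a list of 27 known genes such as Pcna and the Mcm2 to Mcm7 helicase subunits, had the same order, with sums of 1139 CPM in replicate 2, 900 CPM in replicate 1 and 795 CPM in replicate 3. The calls depended on single libraries. Without any 1 of the NF-YAcKO libraries, 0 of the 9 genes were called by edgeR, although 7 had an unadjusted p under 0.05 each time. Without NF-YAfl/fl replicate 1 the call was left for Rrm2 alone. Without NF-YAfl/fl replicate 2 it was made for Rrm1, Rrm2, Tk1 and Dut, and without NF-YAfl/fl replicate 3 for Rrm2, Dut and Dtymk.

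Of the ribonucleotide reductase genes, Rrm2 showed the largest difference. Its level was 415, 449 and 458 CPM in NF-YAcKO replicates 1 to 3 and 78.6, 170 and 155 CPM in those of NF-YAfl/fl. The lowest NF-YAcKO library was thus well above the highest control, and control replicate 1 was well below the other controls. Rrm2 rose with a log2 fold change of 1.71 (SE 0.28, edgeR FDR 0.00395), or 3.27-fold. Rrm2 lies on chromosome 12 (24708241 to 24714146, plus strand, GRCm38).

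Rrm1, which encodes the subunit that holds the active site, had 372, 398 and 370 CPM in NF-YAcKO and 214, 252 and 144 CPM in NF-YAfl/fl. The genotypes did not overlap, and the spread of the controls (203 ± 55.2 CPM) was larger than that of NF-YAcKO (380 ± 15.5 CPM). The log2 fold change of 0.90 (SE 0.20, edgeR FDR 0.0125) missed the call, and without NF-YAfl/fl replicate 2 it passed, at 1.08 (edgeR FDR 0.00721), while the FDR ran from 0.000591 to 0.0892 over the alternatives that test against no change. Rrm1 lies on chromosome 7 (102441695 to 102469771, plus strand, GRCm38).

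Rrm2b was the least abundant of the 9 genes on the per-length scale. It had 18.1, 16.2 and 16.6 CPM in NF-YAcKO and 13.1, 11.7 and 9.43 CPM in NF-YAfl/fl. In CPM the genotypes did not overlap, but in TPM they did, with 3.62 to 4.73 TPM against 2.05 to 3.81 TPM. The log2 fold change was 0.57 (SE 0.15, edgeR FDR 0.0250) and was not called. Of 23 known p53 targets, edgeR called 0 higher and 2 lower. These were Cdkn1a, an inhibitor of cyclin-dependent kinases (log2 fold change -2.55, SE 0.43, edgeR FDR 0.00465), and Eda2r, of the TNF receptor superfamily (-1.37, SE 0.11, FDR 0.000392). Eda2r is X-linked. Of all tested genes, 7.67% were called lower. Over this list 2 genes were higher and 8 lower at an unadjusted p under 0.05, 0 were higher and 7 lower at an FDR under 0.05, DESeq2 called 0 higher and 3 lower, and the median log2 fold change was -0.04.

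The makeup of the small subunit transcripts was compared in TPM, which corrects for length. Rrm2 gave 98.0%, 98.4% and 98.3% of the Rrm2 and Rrm2b TPM in NF-YAcKO and 92.9%, 96.8% and 97.2% in NF-YAfl/fl. The genotypes did not overlap, and the means differed by 2.58 percentage points (two-sided exact permutation test, p = 0.1, below which 3 libraries against 3 cannot go). As a ratio, Rrm2 was 56.0 ± 5.61 times Rrm2b in NF-YAcKO and 26.2 ± 11.5 times in NF-YAfl/fl (SD, n = 3). Rrm2 TPM was 2.13, 2.15 and 2.36 times Rrm1 TPM in NF-YAcKO, and 0.701, 1.29 and 2.05 times in NF-YAfl/fl, again without overlap (exact permutation test, two-sided, p = 0.1). Control replicate 3 was close to the NF-YAcKO libraries in this ratio, and control replicate 1 was the one library with less Rrm2 than Rrm1.

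**Figure D2:**
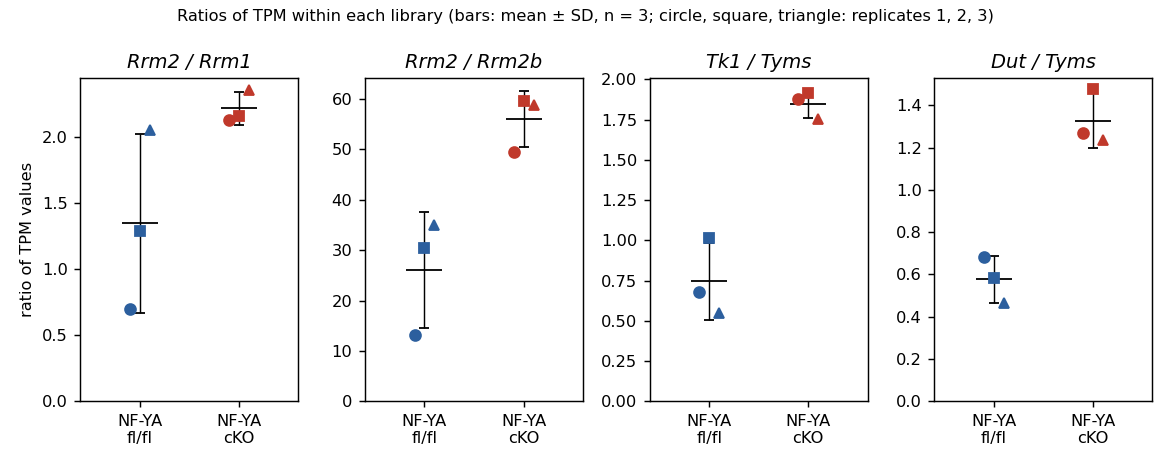
Ratios of TPM values within each library for Rrm2 over Rrm1, Rrm2 over Rrm2b, Tk1 over Tyms and Dut over Tyms, with bars for mean ± SD. In each panel the 3 NF-YAcKO libraries lie above the 3 NF-YAfl/fl libraries, and they come closest for Rrm2 over Rrm1 (2.13 against 2.05).

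The thymidylate route was uneven. Dut, whose product hydrolyses dUTP and so keeps uracil out of DNA, had 76.7, 86.8 and 75.4 CPM in NF-YAcKO and 32.3, 37.6 and 22.4 CPM in NF-YAfl/fl. Every NF-YAcKO library was above every control. Dut rose with a log2 fold change of 1.37 (SE 0.19, edgeR FDR 0.00239), or 2.59-fold.

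Tyms, the enzyme that methylates dUMP, showed no such difference, with 102, 99.1 and 103 CPM in NF-YAcKO and 80.5, 111 and 81.7 CPM in NF-YAfl/fl. Control replicate 2 was above all NF-YAcKO libraries, so the genotypes overlapped. The log2 fold change was 0.15 (SE 0.14, edgeR FDR 0.406), with a 95% interval from -0.17 to 0.48, which does not reach a log2 fold change of 1. Without NF-YAfl/fl replicate 2 the log2 fold change was 0.31 (edgeR FDR 0.0193), which was not called either. Tyms lies on chromosome 5 (30058202 to 30073617, minus strand, GRCm38) and Dut on chromosome 2 (125247190 to 125258608, plus strand). On the per-length scale, Dut TPM was 1.33 ± 0.130 times Tyms TPM in NF-YAcKO and 0.577 ± 0.110 times in NF-YAfl/fl (SD, n = 3), without overlap (exact permutation test, two-sided, p = 0.1).

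Tk1, the cytosolic thymidine kinase of dividing cells, had 63.0, 62.4 and 59.5 CPM in NF-YAcKO and 17.7, 36.2 and 14.6 CPM in NF-YAfl/fl. Control replicate 2 had about double the level of the other controls, and all 3 were below NF-YAcKO. The log2 fold change of 1.43 (SE 0.33) had an edgeR FDR of 0.0139 and was not called, although it was larger than that of Dut. Without NF-YAfl/fl replicate 2 it was called, at 1.93 (edgeR FDR 0.000465), and DESeq2 on all 6 libraries called it too. The FDR of Tk1 ran from 0.000185 to 0.0552 over all alternatives that test against no change. Tk2, the mitochondrial thymidine kinase, had 12.9 ± 0.458 CPM and 11.8 ± 3.51 CPM (log2 fold change 0.13, edgeR FDR 0.661). In TPM, Tk1 was 8.77 ± 0.294 times Tk2 in NF-YAcKO and 3.99 ± 2.63 times in NF-YAfl/fl (SD, n = 3), and 1.85 ± 0.0860 against 0.747 ± 0.239 times Tyms, both without overlap (exact permutation test, two-sided, p = 0.1 for each).

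Dtymk, which phosphorylates thymidylate from both routes, had 42.4, 40.7 and 40.2 CPM in NF-YAcKO and 21.9, 18.1 and 24.4 CPM in NF-YAfl/fl. The order of the controls was unlike that of the other genes, with replicate 3 highest and replicate 2 lowest. Its log2 fold change of 0.94 (SE 0.13) had an edgeR FDR of 0.00228, the lowest of the 9 genes, and missed the call by its size alone. Without NF-YAfl/fl replicate 3 it passed, at 1.03. Dtymk lies on chromosome 1 (93792576 to 93801934, minus strand, GRCm38) and Tk1 on chromosome 11 (117815526 to 117826092, minus strand).

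Dck had 30.1, 32.5 and 29.1 CPM in NF-YAcKO and 16.2, 20.6 and 16.1 CPM in NF-YAfl/fl, without overlap. Its log2 fold change of 0.79 (SE 0.13, edgeR FDR 0.00445) was below the fold minimum. Dguok, which salvages purine deoxynucleosides in mitochondria, was at 6.02 ± 0.497 CPM and 6.13 ± 0.0721 CPM (log2 fold change -0.03, edgeR FDR 0.898). Dck TPM was thus 1.62 ± 0.0579 times Dguok TPM in NF-YAcKO and 0.911 ± 0.119 times in NF-YAfl/fl (SD, n = 3; exact permutation test, two-sided, p = 0.1). Dck lies on chromosome 5 (88764996 to 88783281, plus strand, GRCm38).

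Samhd1, the only one of the 9 genes whose product hydrolyses the dNTPs that DNA is made of, had 31.2, 33.3 and 32.5 CPM in NF-YAcKO and 28.7, 36.5 and 23.6 CPM in NF-YAfl/fl. The control libraries enclosed the NF-YAcKO libraries. Its log2 fold change was 0.13 (SE 0.16, edgeR FDR 0.571), with a 95% interval from -0.26 to 0.52. Without NF-YAfl/fl replicate 3 it was -0.018 (edgeR FDR 0.909). That FDR was the highest of a range from 0.0834 over the alternatives that test against no change. Macrophage markers differed between the same libraries, and their part in the Samhd1 level was not tested. Lyz2, a lysozyme of macrophages, was at 190, 203 and 101 CPM in NF-YAcKO and at 4.01, 6.24 and 1.97 CPM in NF-YAfl/fl (log2 fold change 5.33, SE 0.49, edgeR FDR 0.000567). Adgre1, which encodes F4/80, was at 9.02, 6.59 and 2.75 CPM against 0.153, 0.238 and 0.0339 CPM. Ptprc, C1qb and Fcer1g each had 0 counts in 1 control library and no marker was at 0 in NF-YAcKO. NF-YAcKO replicate 3 had the lowest macrophage sum of its group (148 CPM, against 271 and 295 CPM) and 32.5 CPM of Samhd1, between the other 2. Of 11 tested interferon-stimulated genes, 1 was called higher (Oas1a, log2 fold change 3.86, SE 0.58, edgeR FDR 0.00297) and 1 lower (Ifit1, -1.94, SE 0.34, FDR 0.00528). Oas1a had 1 expected count in each control library, so the size of its fold change is uncertain. At an FDR under 0.05, 1 of the 11 was higher and 4 were lower, and DESeq2 called 1 higher and 2 lower. Samhd1 lies on chromosome 2 (157097533 to 157135265, minus strand, GRCm38).

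Levels of different genes were set in order per length, in TPM. In NF-YAcKO the order was Rrm2 (233 ± 16.9 TPM), Rrm1 (105 ± 4.95), Dtymk (68.0 ± 7.64), Tk1 (54.9 ± 4.76), Dut (39.2 ± 1.09), Tyms (29.8 ± 2.96), Dck (11.3 ± 0.514), Samhd1 (9.95 ± 0.599) and Rrm2b (4.20 ± 0.556, SD, n = 3). No neighbours in this order overlapped over the 3 libraries. In NF-YAfl/fl it was Rrm2 (77.0 ± 36.2 TPM), Rrm1 (62.5 ± 27.5), Dtymk (37.7 ± 2.57), Tyms (28.7 ± 10.7), Tk1 (23.2 ± 16.0), Dut (16.8 ± 7.08), Samhd1 (9.85 ± 3.94), Dck (7.07 ± 2.36) and Rrm2b (3.06 ± 0.910). There all neighbours overlapped except Dck and Rrm2b, so that only the last place was set apart from the one before it. Tyms stood above Tk1 and Dut by its mean in the controls and below both in NF-YAcKO.

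Since genes of DNA replication were higher in NF-YAcKO, each gene was also set against them within its own library. Of the 27 replication genes, 22 were called higher and 27 were higher at an FDR under 0.05, with a median log2 fold change of 1.22. Cdc6, which loads the helicase, rose by 1.65 (SE 0.18, edgeR FDR 0.00109), the helicase subunit Mcm5 by 1.63 (SE 0.22, FDR 0.00228), Gins1 by 1.63 (SE 0.18, FDR 0.00102) and Mcm3 by 1.54 (SE 0.15, FDR 0.000709). Pola1, a called gene of this list, is X-linked. Of 11 genes of mitosis, 10 were called higher, with a median of 1.27.

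Relative to the mean log2 CPM of the replication genes, 5 of the 9 genes were lower in every NF-YAcKO library than in every control, as were 84.7% of all tested genes. The mean of the replication genes itself was 1.3 higher on the log2 scale in NF-YAcKO, and the median tested gene differed from it by -1.28, so that a gene with a similar CPM in both genotypes is low on this scale by construction. Samhd1 differed by -1.15, with -0.90, -0.90 and -0.85 in NF-YAcKO against 0.27, 0.30 and 0.23 in NF-YAfl/fl. Tyms differed by -1.13, from values of 0.81, 0.67 and 0.81 against 1.76, 1.90 and 2.02. Both were near the median tested gene. Rrm2b differed by -0.72, Dck by -0.50 and Rrm1 by -0.36. Each of the 5 had p = 0.1 (two-sided exact permutation test, not adjusted over the 9 genes compared). Dtymk (-0.35), Dut (0.10), Tk1 (0.25) and Rrm2 (0.49) overlapped between genotypes (exact permutation test, p = 0.3 for Rrm2 and p = 0.4 for each of the others). With the 11 genes of mitosis as the reference, which were also higher, 5 of the 9 genes and 80.4% of all tested genes were lower without overlap.

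**Figure D3:**
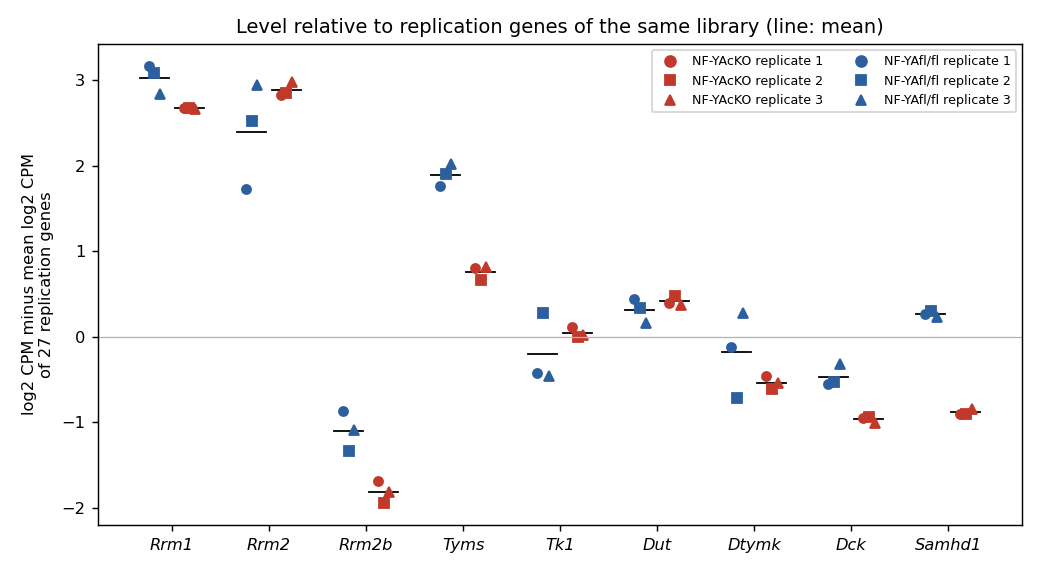
Level of each gene as log2 CPM minus the mean log2 CPM of 27 replication genes in the same library, with lines for the group means. For Tyms and Samhd1 the NF-YAcKO points lie below those of NF-YAfl/fl by 1.13 and 1.15, close to the 1.28 of the median tested gene, while the genotypes overlap for Rrm2, Tk1, Dut and Dtymk.

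The deposited tables also split 6 of the genes into several transcripts, and 14 transcripts gave at least 5% of their gene's TPM on average. Shares of 1 of these 14 did not overlap between genotypes, where 20.2% of 31704 such transcripts of all tested genes did not, so that this count says nothing particular about the genes. That transcript, the main Tk1 transcript (NM_009387.2), gave 92.1%, 92.4% and 92.2% of Tk1 TPM in NF-YAcKO and 81.6%, 88.8% and 77.2% in NF-YAfl/fl (exact permutation test, two-sided, p = 0.1). Dut has transcripts with different first exons, the one that starts upstream (NM_001159646.1) coding for 200 amino acids and the other (NM_023595.6) for 162, and the former gave 35.7% ± 2.06 against 33.0% ± 2.36 (SD, n = 3) of Dut TPM, with overlap. For Dtymk, the full form (NM_001105667.1, 212 codons) gave 46.8% ± 2.0 against 44.3% ± 3.39, also with overlap, the rest being a form with 80 codons (NM_023136.2). The main Tyms transcript (NM_021288.4) gave 85.1% ± 0.783 against 83.3% ± 7.60. These shares are RSEM's split of reads that transcripts have in common, and the count of 1 rose to between 3 and 5 when a library was left out, since fewer libraries overlap less often.

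The wider pathway was taken as 62 other genes of nucleotide metabolism, all of them tested. Of these, 13 were called higher and 1 lower, where 4.65% and 7.67% of all tested genes were, and 42 were higher and 3 lower at an FDR under 0.05. The median log2 fold change was 0.72. Upp1, a uridine phosphorylase, rose by 1.73 (SE 0.21, edgeR FDR 0.00151), from 3.33, 4.94 and 3.39 CPM in NF-YAfl/fl to 13.3, 14.2 and 11.3 CPM in NF-YAcKO. Of the 26 genes of salvage and last steps, it was 1 of 4 called higher, beside the nucleoside diphosphate kinase Nme4 (1.32, SE 0.20, FDR 0.00311), the deoxycytidylate deaminase Dctd (1.11, SE 0.14, FDR 0.00168), which makes dUMP, and the adenine salvage enzyme Aprt (1.11, SE 0.15, FDR 0.00189), while edgeR called 0 lower, 2 were lower at an unadjusted p under 0.05 and DESeq2 called 0 lower. Prps1, Prps2, Ctps2 and Hprt of the 62 genes are X-linked, and none of them was called.

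Folate enzymes carry the one-carbon units for Tyms and for purines, and 3 of 9 were called higher, with a median log2 fold change of 0.98. Shmt1, which serves thymidylate synthesis, had 47.0, 53 and 47.1 CPM in NF-YAcKO against 17.0, 16.7 and 17.5 CPM in NF-YAfl/fl (log2 fold change 1.53, SE 0.10, edgeR FDR 0.000161). Mthfd1l, a mitochondrial folate enzyme, rose by 1.25 (SE 0.10, FDR 0.000413). Shmt1 and Mthfd1l passed the call while Tyms itself did not, and the difference between their fold changes and that of Tyms was not tested.

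Among 9 genes whose products break down nucleotides, not only dNTPs, 3 were called higher (median 0.81), led by Dctpp1, a dCTP pyrophosphatase, with a log2 fold change of 1.36 (SE 0.12, edgeR FDR 0.000537). Of 5 genes of pyrimidine synthesis edgeR and DESeq2 each called 0, while 5 were higher at an unadjusted p under 0.05 (median 0.66). Of 13 genes of purine synthesis 3 were called higher (median 0.88), including Ppat, the first committed enzyme (1.11, SE 0.08, FDR 0.000307), and 1 lower. That was Adssl1, the muscle form of adenylosuccinate synthase, with 2.46, 2.05 and 2.96 CPM in NF-YAcKO and 35.4, 17.4 and 16.0 CPM in NF-YAfl/fl (log2 fold change -3.20, SE 0.36, edgeR FDR 0.00115), and the markers of differentiating muscle were lower in the same libraries. Their part in the Adssl1 difference was not tested.

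**Figure D4:**
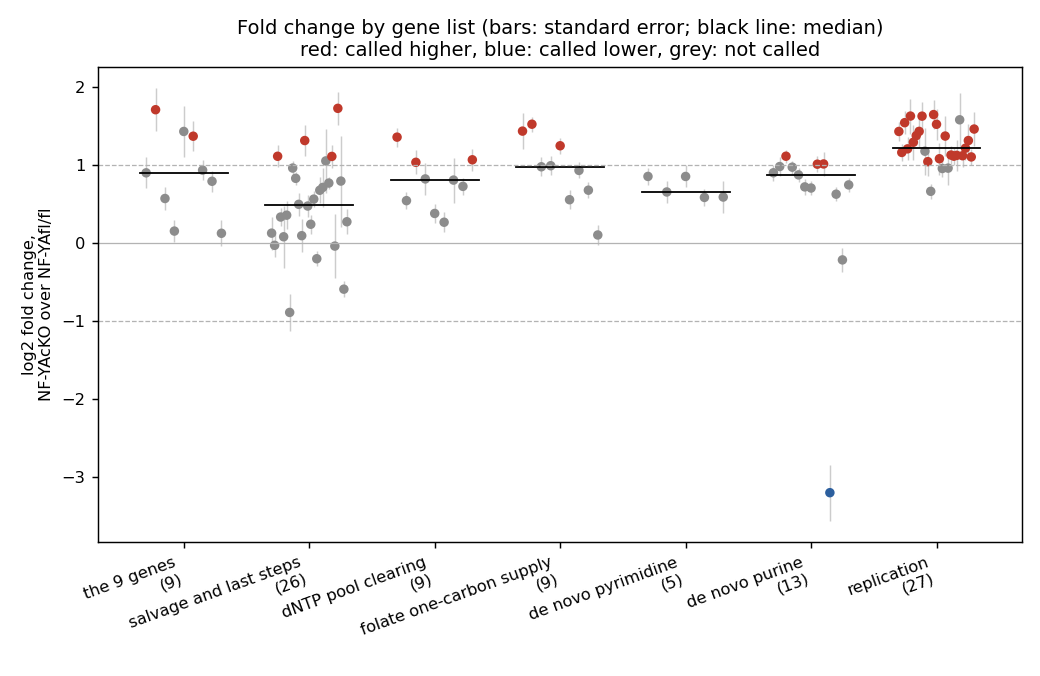
Log2 fold change of NF-YAcKO over NF-YAfl/fl for the 9 genes, for 5 lists of other nucleotide metabolism genes and for 27 replication genes, with bars for the standard error, black lines for medians and dashed lines at 1 and -1. Most points lie between 0 and 2 in every list, and Adssl1 stands alone at -3.20.

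Proteins that regulate the products of the 9 genes were also examined. Of 7 such genes, 2 were called higher and 0 lower by edgeR, with 0 lower at an unadjusted p under 0.05 and 0 lower by DESeq2. Ccnf, whose cyclin F targets the Rrm2 protein for degradation, had 35.7, 38.2 and 36.9 CPM in NF-YAcKO and 13.6, 23.2 and 15.4 CPM in NF-YAfl/fl (log2 fold change 1.08, SE 0.20, edgeR FDR 0.00652). Ccna2, whose cyclin A2 with its kinase phosphorylates Samhd1, had 192, 203 and 193 CPM against 76.7, 109 and 57.9 CPM (1.27, SE 0.22, FDR 0.00501). Protein levels and enzyme activities were not analysed here.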

How the data were processed

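RNA-seq libraries of cultured SCs, 3 NF-YAcKO and 3 NF-YAfl/fl, were used, grouped by the genotype in the labels. With bowtie2 and RSEM, the authors placed reads on mouse transcripts (mm10), and they deposited expected counts and TPM per gene and transcript. RSEM divides reads shared by paralogs, overlapping genes or transcripts, so these are estimates, and TPM, scaled to length and to a fixed sum, keeps no depth.

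Expected counts were rounded. A gene was tested if 2 or more libraries had over 10 counts, which 17348 genes met, with edgeR 4.0.16 (TMM, quasi-likelihood, genotype only, Benjamini-Hochberg adjustment over all tested genes) in R 4.3.3. CPM are counts relative to library size after TMM. A call needed a log2 fold change beyond 1 in either direction with an FDR under 0.01. The standard error is the log2 fold change divided by the square root of F. Ratios, shares and levels relative to replication genes (log2 CPM, prior count of 2) were compared with exact permutation tests over libraries (scipy 1.17.1). The code was tested on simulated data.

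The 9 genes, the gene lists and the tests were chosen with earlier results of these data known, and the motifs with the promoters in view. All 9 genes were named, with the called genes of largest change in each list (at most 10 in nucleotide metabolism, at most 4 in other lists) and the 5 genes most like Rrm2, Rrm2b and Samhd1. Ptprc, C1qb, Fcer1g, Tk2, Dguok, Pax7 and Myod1 fall outside this rule, as do Xist and Ddx3y, and were named with values seen. The results of 2 genes that this rule names are not reported here. Coordinates are from GENCODE (GRCm38). At these depths 3 counts correspond to 0.0705 to 0.115 CPM, a limit for counting error only. Nothing in the labels says whether the 3 libraries of a genotype are from separate mice or cultures, so p-values measure the spread between libraries. The alternatives were a DESeq2 1.42.0 fit, edgeR with DESeq2's size factors, filterByExpr, no filter, limma 3.58.1 on log2(TPM + 1) and log2(TPM + 0.1), counts without rounding, other thresholds, a replicate block and leaving out each library. Plots were drawn with matplotlib 3.10.9.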

Additional observations from a re-analysis of the deposited data

How the results depend on the processing

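Each fit was repeated under 16 alternatives. The log2 fold changes of all 9 genes stayed above 0 under each of them, except that Samhd1 ranged from -0.018 (without NF-YAfl/fl replicate 3) to 0.30 when a library was left out. Of the 9 genes, 2 were called higher, against 3 with DESeq2, 3 with no filter, 0 with limma on log2(TPM + 1), 1 with log2(TPM + 0.1), 7 at an FDR under 0.05 with no fold minimum, 0 with glmTreat against a log2 fold change of 1, and 0 to 4 when a library was left out. Limma on log2(TPM + 1) had 6 of the 9 higher at an unadjusted p under 0.05 and glmTreat 3. Of the 62 other genes, 13 were called higher and 1 lower, against 6 and 7 higher with limma, 42 and 3 at an FDR under 0.05, 1 higher with glmTreat, and 4 to 16 higher and 0 to 2 lower with a library left out.

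Over all tested genes 806 were called higher and 1331 lower (37.7% of calls higher). Limma on log2(TPM + 1) called 231 and 704 (24.7% higher), and log2(TPM + 0.1) 361 higher and 1067 lower (25.3% higher). An FDR under 0.05 gave 3418 and 3285, glmTreat 97 and 510, and leaving out a library 177 to 890 and 523 to 1684. The cause of these shifts was not tested, except that fewer libraries give fewer degrees of freedom. No scaling moved the median log2 fold change of all genes by over 0.1. The Rrm2 share differed by 5.09 percentage points in expected counts, not corrected for length, against 2.58 in TPM, and by 1.22 to 3.36 with a library left out. Genes lower relative to replication genes numbered 5 to 6, and transcript shares without overlap 3 to 5, with a library left out.

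Between libraries with the same replicate number, the deviations from the genotype means correlated at 0.165, -0.069 and 0.053. These values cannot show whether such libraries were handled together, since no pair known to be matched was available to set them against. With the replicate number as a block, 2 of the 9 genes were called higher, and 625 genes higher and 947 lower over all. The least covered of the 9 genes, Rrm2b, had 278 expected counts in its lowest library.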

Other observations

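Genes whose level over the 6 libraries was most like that of a given gene were ranked by the root mean square distance of their log2 CPM, each centred on its own mean, among 9456 genes whose mean reached 10 CPM. These distances are descriptions over 6 libraries that fall into 2 genotypes. Nearest to Rrm2 were LOC108168771 and LOC108167450, uncharacterized loci, at 0.119 and 0.164, followed by Fuom, a fucose mutarotase (0.175), the transcription factor Tfap4 (0.198) and the histone gene Hist1h2af (0.204), a member of a family of near-identical copies whose counts are uncertain. Nearest to Rrm2b were Tgds, Ppp2cb, Serp1, Galk1 and Zfp330, at 0.0309 to 0.0478, and nearest to Samhd1 were Cep164, Aff2, Kctd17, Phldb1 and Apex2, at 0.0249 to 0.0484. None of the genes of the replication list was among these 15 genes. The distance also reflects the fold change, and replication genes, with log2 fold changes of 0.66 to 1.65, all lay above Rrm2b (0.57) and Samhd1 (0.13). Their absence near Rrm2b and Samhd1 therefore says nothing beyond the fold change.

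Markers of further cell types were also counted, with edgeR's calls. Of 5 Schwann cell markers 4 were called higher in NF-YAcKO, with sums of 57.5 to 67.9 CPM against 17.5 to 70.8 CPM in NF-YAfl/fl. Of 7 markers of fibro-adipogenic progenitors 1 was called higher (Lum, 2.98) and 0 lower, with 4 log2 fold changes above 0 and 3 below. DESeq2 called 2 of these markers higher and 1 lower. Of 5 endothelial markers 1 was called higher by edgeR (Kdr, 2.67). Of 5 markers of pericytes and smooth muscle edgeR called 0, while 2 were lower at an unadjusted p under 0.05 and DESeq2 called 2 lower. Of 7 markers of SCs and myoblasts, Cdh15 (-1.78) and Des (-2.09) were called lower and 0 were called higher. At an FDR under 0.05, 2 of the 7 were higher and 3 lower. Pax7 was at 35.2 ± 6.60 TPM in NF-YAcKO and 19.4 ± 3.69 TPM in NF-YAfl/fl (SD, n = 3).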
